A study of Mus musculus with 14 samples.

Results

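The 46 genes described here act in M phase, the stage at which a cell assembles a spindle, separates its chromosomes and divides. They were taken as a named list and not by a cut on measured values, although earlier results of these data were then known. All 46 were found among the 53239 gene symbols of the deposited tables, as 280 transcript models of which 25 held no count in any library. The list holds 8 roles: 11 entry kinases, cyclins and their regulators, 7 Aurora kinases and passenger proteins, 5 spindle checkpoint proteins, 8 centromere and kinetochore proteins, 3 regulators of anaphase onset, 3 centrosome and spindle pole proteins, 5 condensin and anaphase chromatin proteins, and 4 cytokinesis proteins.

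M phase begins when cyclin B and CDK1 form an active kinase, which CDC25 phosphatases switch on and WEE1 holds back. Kinetochores then bind spindle microtubules, the checkpoint delays anaphase until every kinetochore is attached, and CDC20 lets the anaphase-promoting complex destroy securin and cyclin B. In the testis the same machinery serves the mitoses of spermatogonia and both meiotic divisions of spermatocytes, and many of its transcripts build up in pachytene spermatocytes long before those cells divide.

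Total RNA (input) and RNA bound to tagged ribosomes (IP) were sequenced from whole testis of C57BL/6 mice. All mice were 21 days old, an age at which late meiotic germ cells are abundant. Wild types were Adad2+/+ (3 animals, 121, 140 and 17) and mutants Adad2M/M (4 animals, 12, 69, 93 and 94). Both genotypes carried Stra8iCre and the RiboTag allele Rpl22HA, so each animal gave 1 input and 1 IP library, 14 in all. Stra8-iCre is active from differentiating spermatogonia on, so that somatic cells should carry little tagged ribosome, while input holds every cell of the testis. ADAD2 is an RNA-binding protein of mid- and late spermatocytes, and the comparisons ask how its loss alters transcript abundance and ribosome association.

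Many promoters of M phase genes carry a cell cycle homology region (CHR element, TTTGAA or TTTAAA) and CCAAT boxes, the sites at which the MuvB complexes and NF-Y bind. Both strands of the 250 bases before each RefSeq start (GRCm38.p6) were searched for these letters, and 37 of the 46 genes had an entry, with 40 promoters in all. A CHR element was present in 19 of 40 member promoters (47.5%) against 25.2% of all 32851 promoters, and a CCAAT box, in either orientation, in 29 of 40 (72.5%) against 33.8%. At least 2 CCAAT boxes stood in 42.5% of member promoters and 10.1% of all, and both motifs in 40% and 8.78%. A match describes the letters and is not a measured binding site. The 170 bases before the RefSeq start are shown for the 6 members with the smallest p in mutant against wild-type input, to set side by side promoters with and without the CHR element; capitals mark CHR elements and CCAAT boxes (ATTGG where the box lies on the other strand).
Prc1, chr7:80294306-80294475, plus strand: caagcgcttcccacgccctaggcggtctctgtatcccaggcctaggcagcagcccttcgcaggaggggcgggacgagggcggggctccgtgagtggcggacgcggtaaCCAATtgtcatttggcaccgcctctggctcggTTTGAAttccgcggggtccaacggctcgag
Cenpf, chr1:189688087-189688256, minus strand: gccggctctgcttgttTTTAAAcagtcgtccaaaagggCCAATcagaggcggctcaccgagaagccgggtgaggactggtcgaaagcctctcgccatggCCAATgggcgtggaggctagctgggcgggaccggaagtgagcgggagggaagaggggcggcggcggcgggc
Bub1b, chr2:118598041-118598210, plus strand: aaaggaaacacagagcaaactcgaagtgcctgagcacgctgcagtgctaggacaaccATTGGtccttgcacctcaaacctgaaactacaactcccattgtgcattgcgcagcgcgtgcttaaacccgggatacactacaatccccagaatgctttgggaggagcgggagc
Ccnb2, chr9:70421555-70421724, minus strand: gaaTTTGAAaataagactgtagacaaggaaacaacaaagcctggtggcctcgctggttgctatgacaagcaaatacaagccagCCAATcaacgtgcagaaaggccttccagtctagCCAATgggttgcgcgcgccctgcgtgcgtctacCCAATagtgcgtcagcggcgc
Plk1, chr7:122159265-122159434, plus strand: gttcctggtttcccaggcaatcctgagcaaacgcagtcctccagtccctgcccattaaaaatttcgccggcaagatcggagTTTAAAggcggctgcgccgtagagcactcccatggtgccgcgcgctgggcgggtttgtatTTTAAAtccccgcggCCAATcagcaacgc
Nek2, chr1:191821303-191821472, plus strand: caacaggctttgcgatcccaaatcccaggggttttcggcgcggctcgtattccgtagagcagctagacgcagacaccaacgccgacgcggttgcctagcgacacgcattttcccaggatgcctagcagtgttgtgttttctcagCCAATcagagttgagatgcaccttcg
Cenpf, Ccnb2 and Plk1 held both motifs in these windows, as did the printed promoter of Prc1, whose CHR element lay at -30 and CCAAT box at -62. Bub1b and Nek2 held a CCAAT box without a CHR element. In GENCODE M21 a transcript start lies further upstream for Prc1 and Nek2, so that the last 26 and 29 bases of their windows are annotated there as untranslated region, which takes in the CCAAT box of Nek2 and the end of the CHR element of Prc1.

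Libraries held 22987974 to 30871330 deposited counts. Levels are given as CPM, counts relative to library size after TMM scaling (the scaling of edgeR), and comparisons between genes use TPM, which allows for transcript length. Mutant inputs 12 and 69 had 16024 and 15438 annotated genes above 0, against 21334 and 27002 in mutants 93 and 94 and 25319 to 27791 in wild types, and mutant IP had 12744 to 15024 against 19655 to 21880. Counts of members are therefore also given without animals 12 and 69. The targeted gene followed its labels: Adad2 stood at 24.7, 27.3 and 30.8 CPM in wild-type input and 5.47, 5.21, 11.1 and 11.0 in mutant input. This input difference was not called (log2 -1.76 ± 0.37 SE, edgeR adjusted p = 0.347). In IP Adad2 stood at 97.8 to 109 CPM in wild types and 6.30 to 11.5 in mutants (log2 -3.44 ± 0.24 SE, edgeR adjusted p = 0.014). Stra8, whose promoter drives the Cre, was higher in IP than in input of wild types (log2 2.61, edgeR adjusted p = 0.00634), and Sertoli markers were lower there (median log2 -2.39 over 17 genes).

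The 46 genes together took 0.417% to 0.431% of counts in wild-type input and 0.349% to 0.368% in mutant input. In IP their share was 0.649% to 0.679% in wild types and 0.583% to 0.653% in mutants. The share was thus lower in every mutant than in every wild-type input, and in IP mutant 69 lay within the wild-type range. Their levels varied more among mutants: the median coefficient of variation between animals was 9.28% in wild-type input and 26.1% in mutant input, and 12.1% and 26.8% in IP. Per length, Smc4, the core ATPase of condensin, was the most abundant member in wild-type input (173, 169 and 148 TPM), followed by the centrosome kinase Nek2 (123, 111 and 108 TPM) and the midzone bundler Prc1 (112, 96.2 and 87.7 TPM). The values of Nek2 and Prc1 overlapped, and the mean of the gene ranked next, Aurka, was 67.3 ± 9.02 TPM (SD, n = 3). The least abundant were Cdc25b (1.12 ± 0.20 TPM), Wee1 (0, 3.62 and 0.560 TPM) and Ccnb3 (1.39 ± 0.40 TPM), whose order could not be told apart from their spread.

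In mutant against wild-type input no member passed an adjusted p of 0.05 in edgeR, and 10 were lower (21.7%) and 0 higher at an unadjusted p under 0.05. Those 10 were Prc1, Cenpf, Bub1b, Ccnb2, Plk1, Nek2, Spc25, Pttg1, Cdk1 and Ect2, which come from 6 of the 8 roles, none of them an Aurora kinase, passenger or condensin gene. Over all 36572 features tested, 4.76% were lower at that unadjusted p and 0.0082% were called in either direction. The count of 10 fell to 6 with RLE or upper-quartile factors, where 1383 and 1377 of 36572 features were lower. With 1 animal left out it ran from 5 without wild type 17 (1718 of 40753 features) to 12 without mutant 12 (2064 of 35751). It was 6 without wild type 121 (1417 of 40214) or without mutant 94 (3287 of 33948). Without animals 12 and 69 together 16 members were lower (34.8%, against 8.92% of features), 8 of the 10 among them and Cdk1 and Ect2 not, and 3 were higher (Ccna2, Ccnb3 and Aspm, 6.52% against 5.32%). Every mutant lay below every wild type in 13 members (the same 10 with Aurkb, Incenp and Ndc80), that is in 28.3% of them against 11.3% of all features, or 14.7% of the features with a mean log2 CPM of at least 4. None lay above, against 2.58%. In all, 35 members had a log2 fold change below 0 and 11 above, where 60.2% of all features lay below 0. The member median was -0.23 against -0.18 for all features and -0.10 for the abundant ones. DESeq2 called 3 members lower (6.52%), Prc1, Bub1b and Cenpf, against 2.16% of features.

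**Figure D1:**
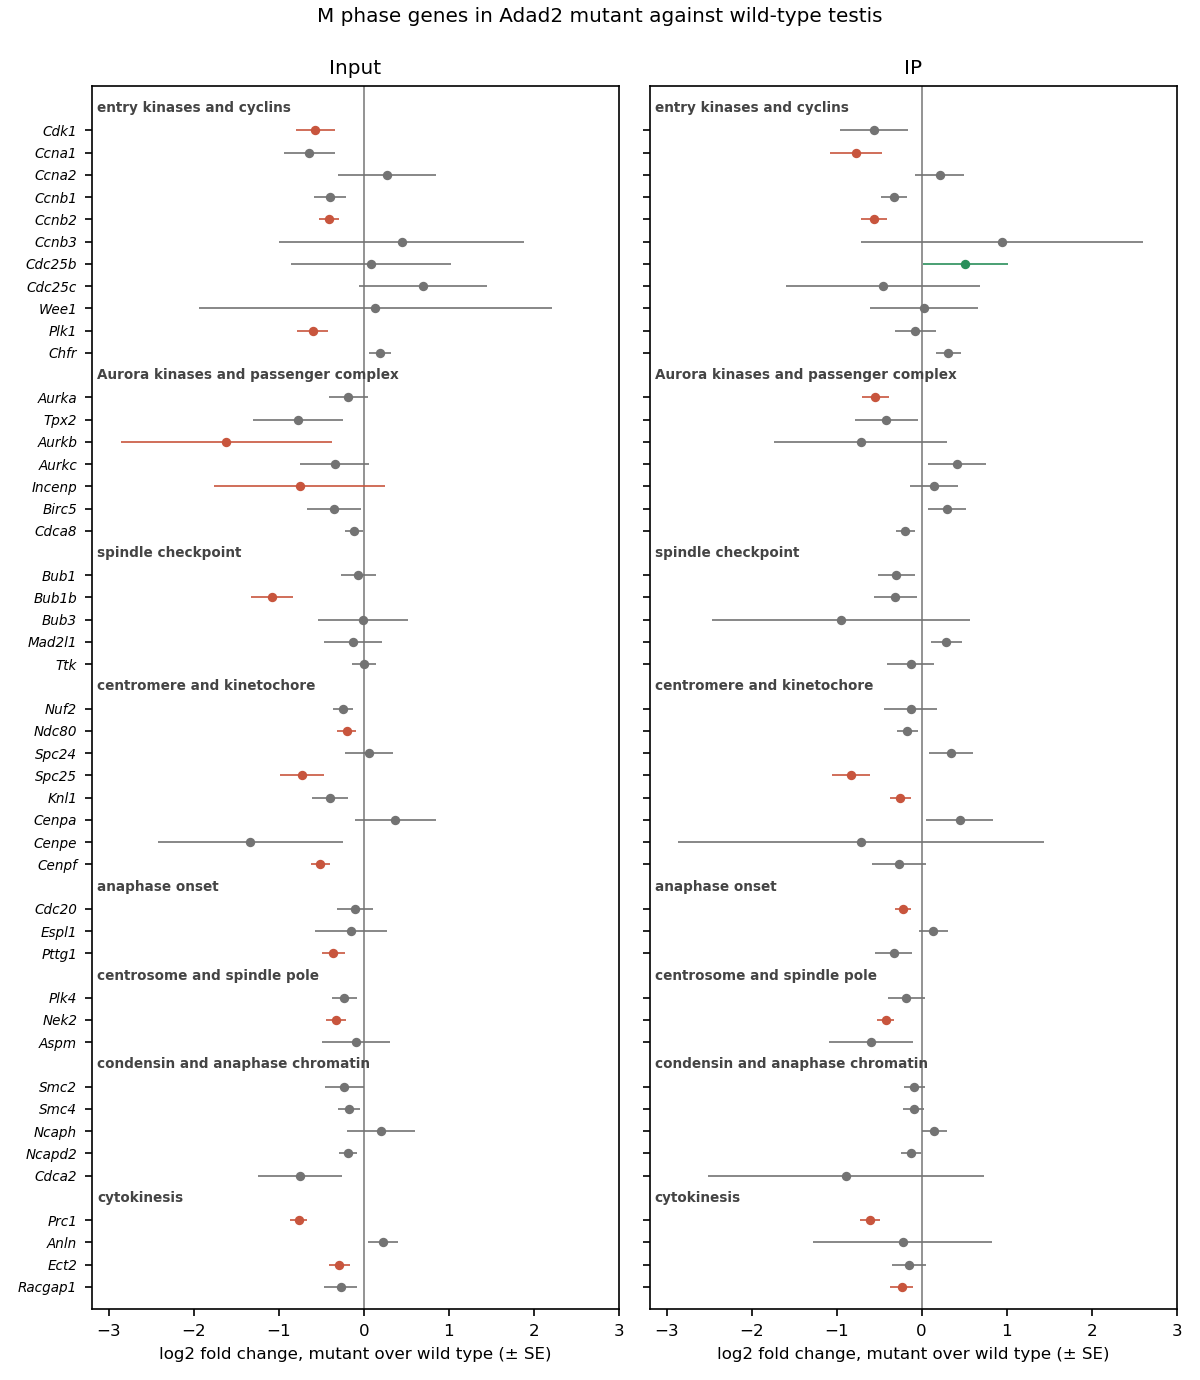
Log2 fold change, mutant over wild type, of each of the 46 genes in input (left) and IP (right), grouped by role; points are edgeR estimates and bars ± 1 SE. Red marks genes with every mutant below every wild type (13 in input, 9 in IP), green those with every mutant above (Cdc25b in IP) and grey the rest, and most red points lie between 0 and -1.1.

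The plot of fold changes by role shows small shifts to the left in most roles, and wide bars for members that were near 0 in single libraries. The lower members were spread over roles rather than gathered in 1 of them. Fold changes in input were below 0 in 7 of 7 Aurora kinase and passenger genes, 6 of 8 kinetochore genes and 3 of 4 cytokinesis genes. They were below 0 in 5 of 11 entry, 4 of 5 checkpoint and 4 of 5 condensin and anaphase chromatin genes. All 3 anaphase onset and all 3 spindle pole genes lay below 0 too. Of all features 60.2% lay below 0, a share that several of these counts are near. None of the Aurora and passenger genes reached an unadjusted p under 0.05, while 2 of the kinetochore, 2 of the cytokinesis and 3 of the entry genes did. Of all features 4.76% were lower at that p. In whole testis, fewer cells of a type and less RNA per cell cannot be told apart. Markers of later germ cells were also lower in mutant input. The 16 late pachytene and diplotene markers summed to 6502 to 7075 CPM in wild types and 4441 to 5368 in mutants, with a median log2 of -0.48 and 16 of 16 below 0. The 17 of 19 round spermatid markers that were tested had a median of -1.38, all below 0, and the 19 summed to 663 to 816 CPM in wild types against 330.3 to 443 in mutants. Tssk6, one of the untested markers, was at 0 in every wild-type input. By contrast 15 of 17 Sertoli markers lay above 0 (median 0.27). The early meiotic markers had a median of -0.17. The part of these cell types in the member values was not tested.

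Prc1 had the smallest p of the list in input. PRC1 bundles antiparallel microtubules of the spindle midzone and is needed for cytokinesis, and its gene lies on chr7:80294450-80316259 (plus strand, GRCm38). Its input level was 288, 283 and 285 CPM in wild types 121, 140 and 17, and 175, 149, 164 and 181 CPM in mutants 12, 69, 93 and 94. IP levels were 465, 416 and 462 CPM in wild types and 315, 241, 300.2 and 320.0 CPM in mutants. The groups were far apart in both fractions, and the SD of the wild-type inputs was 2.71 CPM. The fold change was -0.77 ± 0.10 (log2 ± SE, edgeR adjusted p = 0.217) in input and -0.61 ± 0.12 (edgeR adjusted p = 0.114) in IP, and p = 0.0286 in each by the exact permutation test over 7 animals (two-sided), the smallest that 35 splits allow.

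Cenpf encodes a large kinetochore protein of the outer corona. Its input level was 344, 350.4 and 409 CPM in wild types and 287, 231, 264 and 251 CPM in mutants, without overlap. In IP the wild types stood at 235, 258 and 345 CPM and the mutants at 386, 186, 195 and 158 CPM, where mutant 12 lay above every wild type. The input fold change was -0.51 ± 0.11 (edgeR adjusted p = 0.347) and the IP fold change -0.27 ± 0.32.

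Bub1b and Bub1 are paralogs of the spindle checkpoint: BUBR1, the product of Bub1b, is part of the complex that inhibits CDC20, and BUB1 is a kinase that recruits checkpoint proteins to the kinetochore. Bub1b input stood at 96.3, 92 and 109 CPM in wild types and 60.5, 34.4, 33.0 and 59.1 CPM in mutants, with mutants 69 and 93 lowest. IP gave 291, 259.8 and 262 CPM in wild types and 305, 242, 132 and 198 CPM in mutants, so the groups overlapped through mutant 12. The fold change was -1.08 ± 0.25 in input (edgeR adjusted p = 0.347, exact permutation p = 0.0286) and -0.31 ± 0.26 in IP. Bub1 was 127, 126 and 136 CPM in wild-type input and 97.5, 176, 103 and 119 CPM in mutant input, which overlapped (log2 -0.06 ± 0.21, turning to above 0 with RLE or upper-quartile factors). In wild-type input Bub1b was below Bub1 per length, with 22.1 ± 1.66 against 31.9 ± 2.78 TPM. The other checkpoint genes, Bub3, Mad2l1 and Ttk, had input fold changes of -0.01 ± 0.53, -0.13 ± 0.34 and 0.00 ± 0.14.

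Among the B-type cyclins, Ccnb2 was lower in mutants in both fractions at an unadjusted p under 0.05. Its input level was 94.3, 96.5 and 102 CPM in wild types and 83.9, 65.6, 73.8 and 70.7 CPM in mutants. The IP levels were 216, 198 and 198 CPM against 155, 103, 153 and 142 CPM. Neither fraction showed overlap, with log2 -0.41 ± 0.12 in input (edgeR adjusted p = 0.361) and -0.56 ± 0.16 in IP (edgeR adjusted p = 0.114). Ccnb1 lay in the same range with overlap, at 59.7, 55.0 and 83.6 against 59.2, 49.3, 50.7 and 41.8 CPM in input (log2 -0.40 ± 0.19). Its IP level was 158, 119 and 149 CPM in wild types and 107, 111, 133 and 102 CPM in mutants (log2 -0.32 ± 0.15). Ccnb3, a cyclin of meiotic cells, was scarce, at 9.76, 6.66 and 7.59 CPM in wild-type input and 14.8, 0, 15.7 and 13.0 CPM in mutant input. Its IP level ran from 6.96 to 12.3 CPM in wild types and was 55.1, 15.1, 0 and 7.68 CPM in mutants, with no stable direction. Per length, Ccnb2 led Ccnb1 and Ccnb3 in wild-type input (54.1 ± 3.60, 33.5 ± 4.05 and 1.39 ± 0.40 TPM).

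Of the A-type cyclins, Ccna1 is the form of meiotic germ cells and Ccna2 that of dividing cells in general. Ccna1 was 67.6, 50.3 and 75.4 CPM in wild-type input and 65.7, 34.5, 35.8 and 29.1 CPM in mutants, where mutant 12 alone lay in the wild-type range (log2 -0.64 ± 0.30). Its IP levels of 109, 92.2 and 89.1 CPM in wild types did not overlap with 78.9, 73.2, 36.7 and 38.5 CPM in mutants (log2 -0.77 ± 0.31, edgeR adjusted p = 0.353). Ccna2 had the opposite sign with wide spread, at 13.4, 18.0 and 18.9 CPM in wild-type input and 5.24, 14, 30.9 and 31.3 CPM in mutants (log2 0.28 ± 0.58). Its IP level was 55.6, 46.7 and 36.6 CPM in wild types and 47.0, 34.0, 66.9 and 66.7 CPM in mutants. Per length Ccna1 stood at 43.0 ± 5.42 TPM and Ccna2 at 5.67 ± 0.53 TPM in wild-type input.

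Plk1, a kinase that acts from mitotic entry to cytokinesis, was 60.4, 48.5 and 55.5 CPM in wild-type input and 39.1, 39.5, 38.8 and 26.9 CPM in mutants. The groups did not overlap in input (log2 -0.60 ± 0.19, edgeR adjusted p = 0.397, exact permutation p = 0.0286). In IP Plk1 was 137, 106 and 97.5 CPM in wild types and 123, 141, 75.5 and 91.6 CPM in mutants (log2 -0.07 ± 0.24). Cdk1, the catalytic partner of cyclin B, had a fold change of -0.57 ± 0.23 in input and -0.56 ± 0.40 in IP. The upstream regulators were scarce: Cdc25b was 3.46, 3.32 and 3.37 CPM in wild-type input and 3.98, 1.97, 3.17 and 5.28 CPM in mutants. Its IP level, 8.42, 6.61 and 9.38 CPM against 10.3, 10.8, 13.7 and 11.6 CPM, was the one case with every mutant above every wild type (log2 0.52 ± 0.50, edgeR adjusted p = 1, exact permutation p = 0.0286, against 1.96% of all IP features that lay above). Cdc25c was 5.32, 3.24 and 3.29 CPM in wild-type input, 8.39, 7.73, 4.64 and 4.84 CPM in mutant input, 7.35 to 9.55 CPM in wild-type IP and 2.20, 0.420, 5.88 and 15.9 CPM in mutant IP. Wee1 was listed at 0 in wild type 121 and mutant 12 in input (0, 15.4 and 2.66 against 0, 15.2, 6.83 and 4.50 CPM), and no direction held for it. Its IP level was 23.7, 33.6 and 19.6 CPM in wild types and 7.41, 57.9, 21.6 and 17.4 CPM in mutants.

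The kinase Nek2, which separates centrosomes, was 445, 439.9 and 487 CPM in wild-type input and 416, 330.5, 391 and 319 CPM in mutants. IP held 772, 727 and 709.9 CPM against 599, 584, 539 and 477 CPM. Every mutant lay below every wild type in both fractions, by log2 -0.33 ± 0.12 in input (edgeR adjusted p = 0.541) and -0.42 ± 0.10 in IP (edgeR adjusted p = 0.114). Spc25, a subunit of the NDC80 complex that couples kinetochores to microtubules, behaved alike in sign. Its input level was 21.7, 27.8 and 30.6 CPM in wild types and 19.7, 17.7, 11.7 and 15.3 CPM in mutants, and its IP level 48.9, 43.7 and 35.9 CPM against 25.0, 23.8, 27.7 and 19.8 CPM. The fold changes were -0.73 ± 0.26 in input and -0.83 ± 0.22 in IP (edgeR adjusted p = 0.114), each with an exact permutation p of 0.0286. Its complex partners Ndc80, Nuf2 and Spc24 had input values of -0.20 ± 0.12, -0.25 ± 0.12 and 0.06 ± 0.28.

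**Figure D2:**
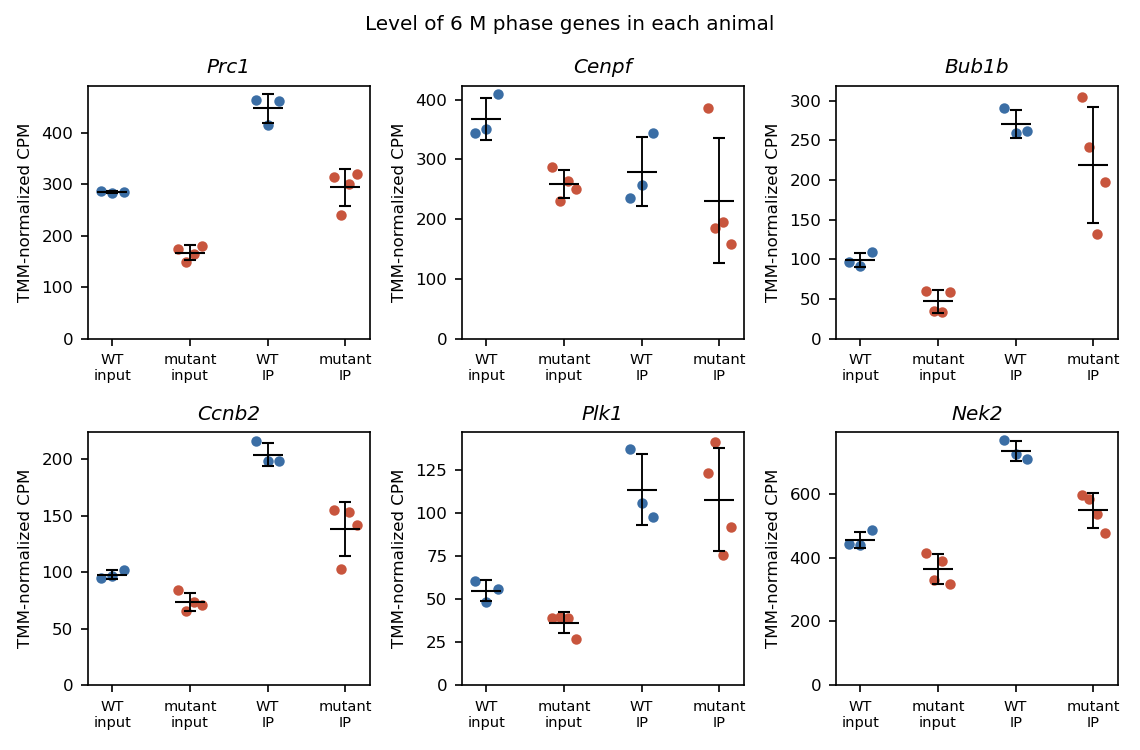
TMM-normalized CPM of Prc1, Cenpf, Bub1b, Ccnb2, Plk1 and Nek2 in each animal, with wild types in blue (3) and mutants in red (4); lines give the mean and bars ± 1 SD. In input all 4 mutants lie below the wild types in each panel, while in IP Cenpf, Bub1b and Plk1 overlap.

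The plot of levels by animal sets these 6 genes side by side: Prc1, Ccnb2 and Nek2 were separated in both fractions, and Cenpf, Bub1b and Plk1 in input alone. Whether the genotype difference itself varied between fractions is a separate question, answered by the IP/input comparison between genotypes.

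The 3 Aurora kinases share a catalytic domain: AURKA acts at spindle poles, AURKB in the chromosomal passenger complex, and AURKC is the passenger kinase of meiotic cells. Aurka was 152, 127 and 172 CPM in wild-type input and 166, 163, 104 and 96.3 CPM in mutants, with mutants 12 and 69 inside the wild-type range (log2 -0.18 ± 0.23, and -0.57 without these 2 animals). The IP levels, 197, 200.3 and 174 CPM against 166, 126, 118 and 112 CPM, did not overlap (log2 -0.54 ± 0.16, edgeR adjusted p = 0.12). Aurkb was 10.6, 11.2 and 10.3 CPM in wild-type input and 0.0394, 1.54, 5.40 and 7.02 CPM in mutants, which lay apart although the p was not small (log2 -1.62 ± 1.24). Its IP level was 36.6, 30.4 and 28.4 CPM against 29.2, 42.3, 1.04 and 4.91 CPM. Aurkc was 16.4, 14.5 and 20.8 CPM in wild-type input, 7.50, 22.2, 13.4 and 11.2 CPM in mutant input, 15.7, 22.1 and 21.3 CPM in wild-type IP and 32.5, 23.7, 15.9 and 33.1 CPM in mutant IP. It was the Aurora kinase with a fold change above 0 in IP (log2 0.42 ± 0.34), which missed the test. Per length the order in wild-type input was Aurka (67.3 ± 9.02 TPM), Aurkc (10.6 ± 1.44 TPM) and Aurkb (5.22 ± 0.88 TPM). Incenp, the scaffold of the passenger complex, had 0.538 CPM in mutant input 12 and 25.7 to 34.3 CPM in the other mutants, against 37.8 to 40.5 CPM in wild types.

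In mutant against wild-type IP no member passed an adjusted p of 0.05 in edgeR, and 7 were lower at an unadjusted p under 0.05 (Prc1, Nek2, Spc25, Ccnb2, Aurka, Ccna1 and Cdc20), which is 15.2% against 10.3% of the 26186 features tested, where 0.00764% were called in either direction. None was higher. The same 7 were among 13 lower members without animals 12 and 69 (28.3%, against 18.2% of features). Every mutant lay below every wild type in 9 members, those 7 with Knl1 and Racgap1, which is 19.6% of the list against 14.5% of all features. Ccnb2, Nek2, Prc1 and Spc25 were in this set in both input and IP. In all 33 members lay below 0 and 13 above, where 59% of all features lay below 0. The member median was -0.21 against -0.16 for all features. The median moved to -0.10 with RLE factors, to -0.08 with at least 10 counts required in every library and to -0.27 without animals 12 and 69. DESeq2 called Prc1, Nek2, Spc25 and Ccnb2 lower (8.7%), near the 7.94% of all features, and it called 0 members when at least 10 counts were required in every library. In these IP libraries the 16 late pachytene and diplotene markers had a median of -0.58 (10407 to 11766 CPM in sum in wild types, 7786 to 8692 in mutants, 16 of 16 below 0). Spermatogonial markers had a median of 0.41 (11 of 13 tested above 0, 685 to 875 CPM in sum in wild types and 773 to 1176 in mutants) and Sertoli markers -0.57 (11 of 16 tested below 0, 245 to 433 against 203 to 339 CPM). The part of these cell types in the IP values was not tested.

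Some members dropped out of single mutant libraries. Cenpe, the kinetochore motor, was 121, 57.9 and 49.5 CPM in wild-type input and 3.55, 3.84, 33.5 and 79.6 CPM in mutants. Cenpe in IP was 187, 65.2 and 195 CPM in wild types and 0, 0, 173 and 190.3 CPM in mutants, where animals 93 and 94 lay within the wild-type range. Cdca2 was at 0 in mutant IP 12 and Bub3 in mutant IP 69, and Anln, an actin-binding protein of the cleavage furrow, was 2.86 CPM in mutant IP 93 and 122 to 232 CPM in the other mutant IPs. Values under 1 CPM numbered 11 over the 46 genes and 14 libraries, with 10 of them in mutants 12, 69 and 93 and the other in wild type 121.

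Ribosome-bound RNA of wild types was rich in M phase transcripts. Of the 46 members, 27 were called higher in IP than in input (58.7%) and 0 lower in edgeR with the animal as block, against 13% of the 34864 features higher and 6.37% lower. On the scale of that fit 40 members were above input in every wild-type animal and 3 below in every animal, counts that were not made over all features. The median was 1.21 against -0.60 for all features. Among features with a mean log2 CPM of at least 4 the median was 0.52 and 42.4% were called higher. The 3 regulators of anaphase onset were all called (Espl1, Cdc20, Pttg1), as were the 4 cytokinesis genes, 7 of 11 entry genes, 4 of 7 Aurora and passenger genes, 3 of 5 checkpoint genes, 3 of 5 condensin and anaphase chromatin genes, 2 of 8 kinetochore genes (Ndc80 and Spc24) and 1 of 3 spindle pole genes (Nek2). These calls rest on 3 animals: none remained without wild type 121 or without wild type 140, where 0 of all features were called too, and 24 were made without wild type 17 (52.2%, against 7.19% of features), with the median between 1.08 and 1.28. The spermatogonial markers had a median of 2.46 in the same comparison (13 of 13 tested above 0), early meiotic markers 1.10, late pachytene and diplotene markers 0.23 and round spermatid markers -2.61.

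Ratios of IP to input in single animals are given on 1 scaling of all 14 libraries, which places wild-type values 0.34 lower in log2 (median over 45 members) than the fit of wild types alone, and mutant values 0.03 lower. Espl1, the protease that cleaves cohesin at anaphase, had ratios of 4.43, 4.21 and 2.81 in wild types and 4.28, 2.93, 6.23 and 6.89 in mutants, from 60.1, 61.8 and 101 CPM of input. Its log2 in the fits was 2.25 ± 0.18 (edgeR adjusted p = 0.0073) in wild types and 2.30 ± 0.25 (edgeR adjusted p = 0.00417) in mutants. Cdca8, the passenger protein borealin, had ratios of 4.09, 3.43 and 3.26 against 3.34, 2.89, 3.70 and 3.65, with log2 2.18 ± 0.13 and 1.79 ± 0.13. Its groups overlapped. Its input level was 74.2, 80.8 and 76.7 CPM in wild types and 68.3 to 74.6 CPM in mutants.

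Ncaph, the kleisin of condensin I, had ratios of 2.85, 4.70 and 2.56 in wild types and 2.89, 7.36, 1.98 and 2.83 in mutants, and Spc24 of the NDC80 complex 3.56, 3.05 and 2.55 against 3.92, 5.58, 3.31 and 2.50. Both were called in both genotypes and overlapped between them. Wee1 had the largest fitted value (3.84 ± 1.96) but was not called, since its input was 0 in wild type 121 and its ratios in the other wild types were 2.15 and 7.50. In mutants with a ratio Wee1 stood at 3.65, 3.22 and 3.98.

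At the other end of the list 3 members lay below input in every wild type on the scale of the fit, while on the scaling of all 14 libraries 7 had ratios below 1 in every wild type (these 3 with Cenpf, Plk4, Knl1 and Smc2). Bub3, a WD-repeat partner of the BUB kinases, had ratios of 0.531, 0.497 and 0.651, Nuf2 of the NDC80 complex 0.417, 0.747 and 0.714, and the passenger protein survivin, Birc5, 0.543, 0.797 and 0.753. Their log2 of -0.50 ± 0.18, -0.38 ± 0.18 and -0.20 ± 0.13 were not called by edgeR. Bub3 and Nuf2 were called lower by edgeR when at least 10 counts were required in every library (4.44% of members, against 29.8% of features) and on annotated genes alone (4.35% against 21.3%), and DESeq2 called Bub3. However, all 3 turned to above 0 in limma on TPM (0.23, 0.02 and 0.34 with 0.1 added). The turn was not particular to them. All 46 members lay above 0 in that setting, and the median of all features was -0.07, against -0.60 in the main fit. Mutant ratios were 0.0675, 0, 0.856 and 0.492 for Bub3, 0.600, 0.613, 0.426 and 1.09 for Nuf2 and 0.791, 1.76, 1.34 and 0.906 for Birc5. Nuf2 thus stood apart from its complex partners Ndc80 (ratios of 3.01, 2.82 and 2.68) and Spc24 in the same wild-type animals. Input and IP of Bub3 were 23.7 to 26.4 and 12.4 to 16.8 CPM in wild types, and of Nuf2 103 to 113 and 46.7 to 78.8 CPM.

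**Figure D3:**
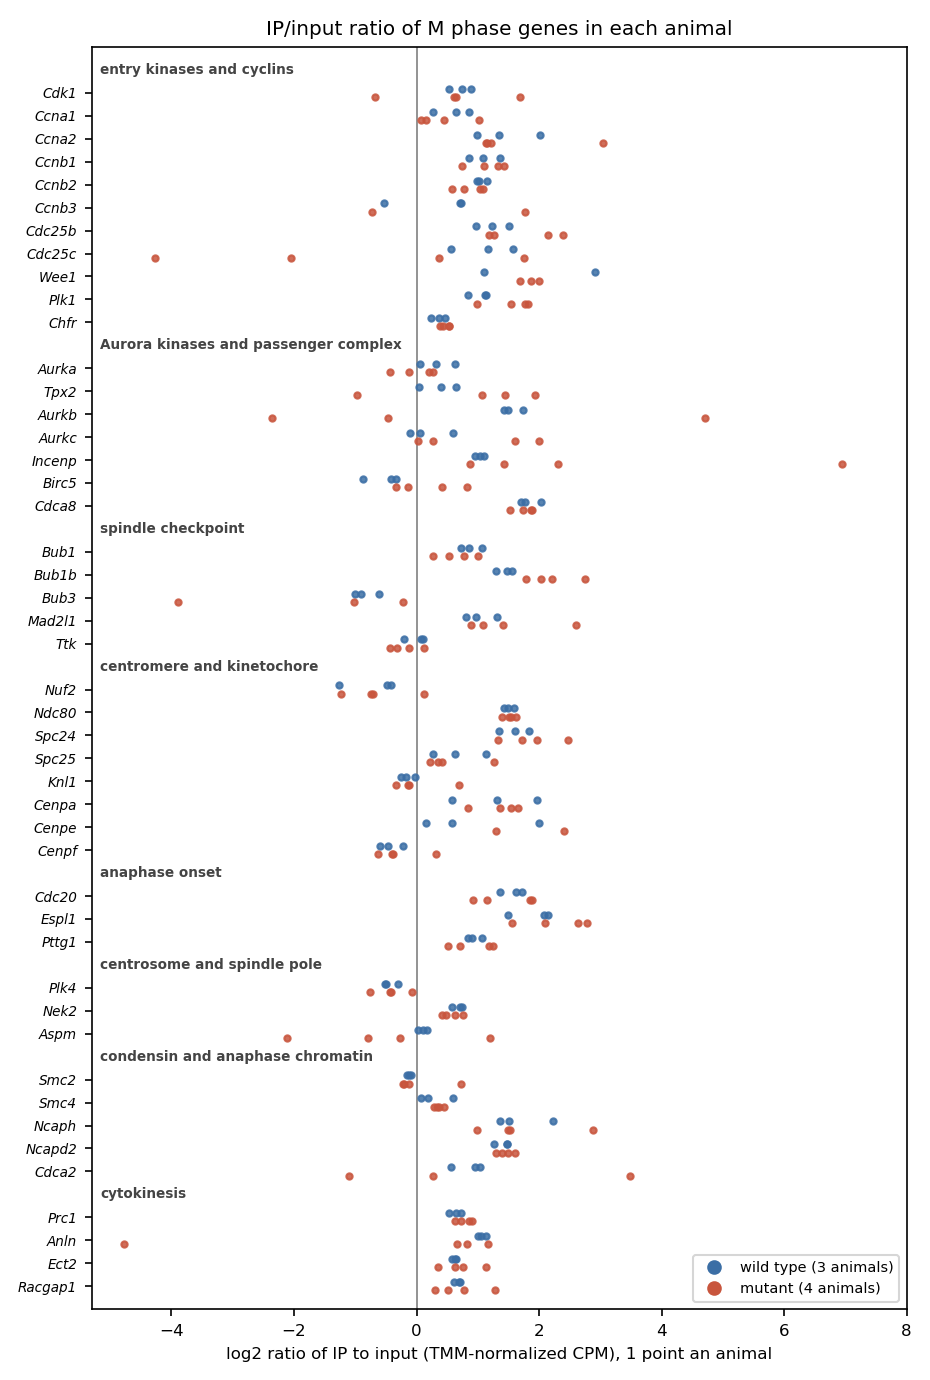
Log2 ratio of IP to input CPM of each of the 46 genes, 1 point an animal (blue, 3 wild types; red, 4 mutants), with genes grouped by role and all 14 libraries on 1 scaling. Most points lie right of 0 in both genotypes, Bub1b is the one gene with all mutants right of all wild types, and 9 of 322 points (6 genes) are not drawn because the ratio was 0, undefined or off the scale.

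In mutants 15 members (32.6%) were called higher in IP than in input and 0 lower in edgeR, against 6.35% and 3.56% of 22918 features. Of the members 28 were above input in every mutant and 2 below, counts that were not made over all features. The median was 0.75 against -0.63 for all features. Among features with a mean log2 CPM of at least 4 the median was 0.13, with 15.2% called higher and 8.25% lower. Of the 27 wild-type calls 14 were also made in mutants, which is 51.9% of the wild-type calls and 93.3% of the mutant calls, Smc4 being the one called in mutants alone. None was called without animals 12 and 69, where 0.0189% of features were called higher and the member median was 0.76. Without 1 mutant 7 to 11 were called, from 7 without mutant 94 (636 of 22194 features higher) to 11 without mutant 12 (1004 of 25355). As the plot of ratios shows, mutant points of low members spread over several log2 units, and a p that missed the threshold in mutants does not show a smaller ratio.

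A genotype difference in the ratio itself was tested as the interaction of fraction and genotype. It covered 44 members, since Ccnb3 and Wee1 were at 0 in an input library. No member was called by edgeR, as for all 16015 features (0%), and 1 was higher at an unadjusted p under 0.05, against 0.475% of features. That gene was Bub1b, with ratios of 2.93, 2.78 and 2.46 in wild types and 4.64, 6.72, 4.07 and 3.44 in mutants, which did not overlap (log2 0.75 ± 0.23, unadjusted p = 0.0137, edgeR adjusted p = 0.474, exact permutation p = 0.0571). Without wild type 140 or without wild type 17 no member reached that unadjusted p. Bub1b was the one member with every mutant above every wild type, against 1.26% of features, and none lay below, against 8.61%. Without animals 12 and 69 the value of Bub1b was 0.39, and Espl1 (0.73) and Aurkb (-3.02) then also had an unadjusted p under 0.05. Its input was lower in mutants while its IP overlapped, as given above.

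The next members by p overlapped between genotypes. Birc5 differed by 0.73 ± 0.34, Plk1 by 0.50 ± 0.24 (ratios of 2.19, 2.16 and 1.79 against 2.90, 3.40, 1.99 and 3.51), Aurkc by 0.79 ± 0.62 (0.926, 1.51 and 1.04 against 3.99, 1.02, 1.21 and 3.03) and Aurka by -0.36 ± 0.22 (1.25, 1.55 and 1.04 against 0.922, 0.740, 1.15 and 1.20). Prc1, lower in both fractions, had ratios of 1.56, 1.45 and 1.66 in wild types and 1.66, 1.55, 1.87 and 1.81 in mutants, a difference of 0.14 ± 0.12. The median of the members was 0.05 against -0.29 for all features and -0.11 for abundant ones, and it moved to -0.08 without animals 12 and 69. When ribosome association was instead taken as IP TPM over input TPM and tested with unequal variances, without adjustment for multiple tests, 3 members were higher in mutants (Birc5, Chfr and Prc1, 6.82%) and 0 lower, against 1.95% and 2.34% of 15990 features.

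Beyond the 46 genes, a further list of 90 M phase genes was described the same way. In mutant input 31 were above 0 and 59 below, where 60.2% of all features lay below 0. Of the 90, 9 were lower at an unadjusted p under 0.05, against 4.76% of features. Their median was -0.13, against -0.18 for all features, and edgeR called 0. The 4 with the smallest p were all below every wild type: Cdca3 (log2 -0.48 ± 0.12), a mitotic entry factor, Cit (-0.70 ± 0.18), the citron kinase of cytokinesis, Bora (-0.62 ± 0.17), an activator of AURKA, and Bod1 (-0.39 ± 0.11). In IP 35 of 89 were above 0 and 54 below, where 59% of all features lay below 0. Their median was -0.125, against -0.155 for all features. First by p were Cit (-0.53 ± 0.17), the histone kinase Haspin (-0.77 ± 0.25), Cks2 (-0.51 ± 0.17) and Haus8 (0.49 ± 0.18, above every wild type). In wild types 52 of 90 were called higher in IP than in input and 6 lower, with a median of 0.91. The shares were 13% and 6.37% of all features. They were 42.4% and 13.9% of features with a mean log2 CPM of at least 4. Anapc2 of the anaphase-promoting complex (log2 2.47), the spindle pole protein Numa1 (2.01) and the CDK1-inhibiting kinase Pkmyt1 (1.76) were higher, and Haspin was lower (-1.46), at 482, 403 and 460.1 CPM of input and 134, 124 and 128 CPM of IP. In mutants 17 of 87 were called higher and 3 lower, beside 6.35% and 3.56% of all features. Of features with a mean log2 CPM of at least 4, 15.2% were called higher there and 8.25% lower. Numa1 (1.84), Anapc2 (2.01), Top2a (1.21) and Haspin (-2.06) were first by p. In the interaction 81 were tested and 0 called, with a median of 0.01, and the 4 first by p were Bora (0.59 ± 0.33), Fbxo5 (-5.75 ± 3.29, at 0 in mutant IP 12 and 69), Anapc4 (-0.32 ± 0.19) and Hmmr (0.82 ± 0.50).

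The tables hold single transcript models, and the share of a gene's TPM taken by each model was compared between input and IP. Models whose share moved the same way in all 7 animals, by a mean of 20 points or more in both genotypes, were chosen after the values were seen: 5 had a larger share in IP (Prc1-211, Prc1-214, Smc4-201, Spc24-204, Cenpa-209) and 2 a smaller one (Prc1-206, Ccnb1-201), from 5 genes. RSEM divides reads among overlapping models, so a share is an estimate whose error was not measured. Prc1 held 3 of the 7. Prc1-206 has 14 exons and 1112 bases after its coding part, with the last exon at chr7:80315114-80316251. Prc1-211 lacks the 123-base exon at chr7:80301037-80301159 and ends at 80315584, which leaves 445 bases after the coding part, and Prc1-214 is annotated as a retained intron of 595 bases.

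Prc1-206 took 53.5% ± 5.15 (SD, n = 3) of Prc1 TPM in wild-type input and 5.93% ± 7.02 in wild-type IP, and 43.8% ± 10.3 (n = 4) and 1.92% ± 2.30 in mutants. Its level was 54.7, 56.7 and 46.3 TPM in wild-type input and 19.3, 14.1, 22.5 and 25.6 TPM in mutants. Its IP level was 16.1, 0.780 and 55.8 TPM in wild types, so that wild type 17 rose in TPM while its share fell. In mutants it was 11.3, 0, 0 and 13.6 TPM. Prc1-211 went the other way, from 9.47, 0 and 8.24 TPM in wild-type input to 164, 148 and 142 TPM in IP, and from 5.63, 6.76, 12.0 and 5.34 TPM to 159.9, 101, 105 and 101 TPM in mutants. Its share was 5.95% ± 5.17 in wild-type input and 37.3% ± 2.15 in IP. Prc1-214 stood at 24.4, 19.3 and 16.9 TPM in wild-type input and 193, 206 and 159 TPM in IP, and at 10.9, 7.07, 0 and 7.63 TPM and 190.1, 90.7, 183 and 156 TPM in mutants. In input Prc1-206 and Prc1-214 were lower in every mutant than in every wild type, while Prc1-211 overlapped between genotypes in input.

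**Figure D4:**
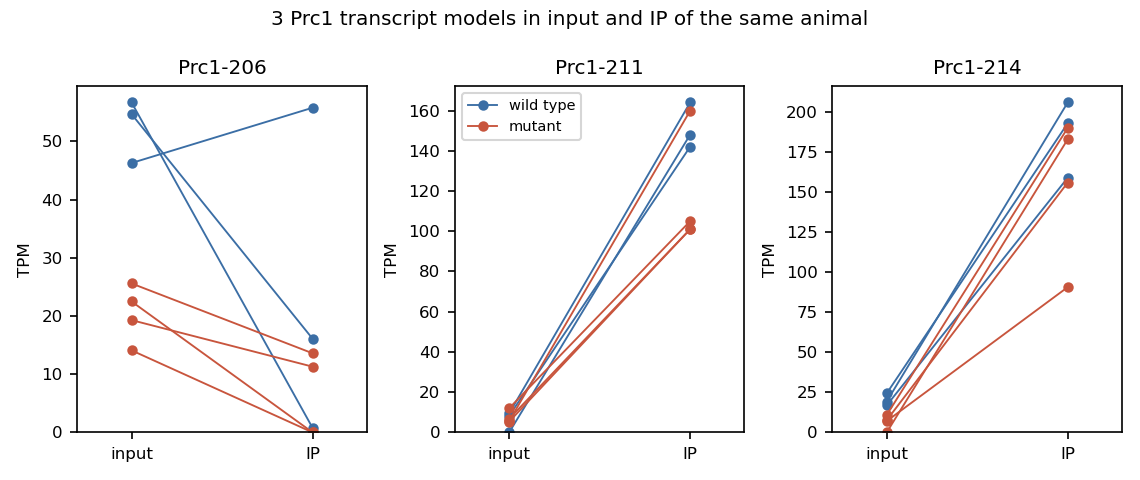
TPM of 3 Prc1 transcript models in input and IP, with a line joining both fractions of 1 animal (blue, 3 wild types; red, 4 mutants). Prc1-211 and Prc1-214 rise from at most 24.4 TPM in input to at least 90.7 TPM in IP in all 7 animals, and Prc1-206 is lower in IP in 6 of 7.

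The plot of Prc1 models shows estimated TPM that changed differently between fractions from model to model. On TPM Prc1-206 was lower in IP in 6 of 7 animals and higher in wild type 17. The other drawn models were higher in IP in all 7. The rise in wild type 17 did not hold on expected counts, taken before scaling by library size. Those of Prc1-206 were 4445 to 5292 in wild-type input and 41.9 to 3209.6 in wild-type IP. In mutants they were 1550.3 to 3239.9 in input and 0 to 942 in IP. The gene-level IP/input ratio of Prc1 joins these models, with a wild-type mean of 1.56 on CPM and 4.15 on TPM. Ratios on TPM were also higher for genes outside this set of models. The wild-type means were 1.60 on CPM and 2.72 on TPM for Nek2, and 3.59 and 6.25 for Cdca8. How far the division of reads by RSEM shaped the model values was not tested. Smc4-201 (24.0% to 51.5% of Smc4 TPM in wild types), Spc24-204 (0.32% to 21.8%) and Cenpa-209 (8.76% to 57.5%) also had larger mean shares in IP, and Ccnb1-201 a smaller one (39.9% to 15.5%). Smc4 as a gene was 670.5, 842 and 754 CPM in wild-type input and 575, 621, 675 and 802 CPM in mutants (log2 -0.18 ± 0.13), and 1043, 975 and 773 CPM in wild-type IP against 847, 795, 856 and 985 CPM (log2 -0.10 ± 0.13, above 0 with RLE or upper-quartile factors), with overlap in both fractions.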

How the data were processed

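Total RNA (input) and anti-HA immunoprecipitated RNA (IP) from testes of 7 mice gave 14 stranded libraries depleted of ribosomal RNA. The authors removed ribosomal reads with Bowtie2, trimmed with Trimmomatic and quantified with RSEM 1.3.3 on GRCm38 transcripts joined to assembled testis transcripts. They deposited, for each transcript, the expected count without normalization and the TPM of the same run, scaled over all entries with spike-ins among them. Of 182829 entries, 133445 Ensembl transcripts were summed to 53239 gene symbols (GENCODE M21), 404 were kept singly, 48888 assembled transcripts were kept singly, and 92 spike-ins were left out, which gave 102531 features. Reads that fit several transcripts are divided by RSEM, so members with near-identical copies are less certain.

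Expected counts were rounded and tested with edgeR 4.0.16 (TMM, filterByExpr, robust quasi-likelihood test) across all features, at a Benjamini-Hochberg adjusted p under 0.05. The IP/input fits took the animal as block, since both libraries come from 1 animal; after removal of group means they correlated by 0.063 to 0.117 in wild types and 0.022 to 0.047 in mutants. Features at 0 in an input library did not enter the interaction. Levels are TMM-normalized CPM. P-values reflect the spread between animals. Single genes were also tested by exact permutation over 7 animals (35 splits, two-sided). The scripts were tested on simulated data.

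The members, role lists, marker lists and the list of 90 further genes were chosen with earlier results of these data known. Values for every animal are given for up to 6 members with the smallest p in each mutant against wild-type comparison and in the interaction, the 3 highest and 3 lowest by TPM, the paralog sets Aurka/Aurkb/Aurkc, Ccna1/Ccna2, Ccnb1/Ccnb2/Ccnb3, Cdc25b/Cdc25c and Bub1/Bub1b, and the 5 largest and 3 smallest IP/input ratios of wild types. From the further list, up to 4 genes with the smallest p per comparison are named. Drop-outs and transcript shares were chosen after the values were seen. Alternatives were DESeq2 1.42.0, a stricter filter (10 or more counts in each library) or none, RLE or upper-quartile scaling, limma 3.58.1 on log2 TPM with 0.1 or 1 added, annotated genes alone, no block, leaving out each animal or animals 12 and 69, and the study's unequal-variance test of TPM ratios. DESeq2 with at least 10 counts in every library was added after the data were seen. EBSeq, the study's abundance test, was not used here. R 4.3.3 and Python 3.11.15 were used.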

Additional observations from a re-analysis of the deposited data

Results flagged for a closer look

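In 7 of 76 groups of 4 mutants examined over the named members, 1 animal stood apart from the other 3 by Dixon's ratio. Chance gives about 1 in 20 for independent values with a normal spread. These were CPM and ratios without logs, and the groups shared libraries, so 7 of 76 cannot be read against that rate. Cenpf had 386 CPM in IP of mutant 12, against 158 to 195 in the other mutants, and this is the library that made the IP groups overlap. Plk1 had 26.9 CPM in input of mutant 94, against 38.8 to 39.5. Ccnb3 had 0 CPM in input of mutant 69, against 13.0 to 15.7. The IP/input ratio of Spc25 was 2.4 in mutant 93, against 1.17 to 1.33, and that of Ccna2 8.28 in mutant 12, against 2.19 to 2.32. The ratio of Ncaph was 7.36 in mutant 69, against 1.98 to 2.89. The ratio of Aurkb was 684 in mutant 12, against 0.196 to 26.2, where its input stood at 0.0394 CPM. Of these 7 values, 5 were in mutants 12 and 69.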

How the results depend on the processing

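In input 3 members were called by DESeq2 (Prc1, Bub1b, Cenpf), 1 without a filter (Prc1) and 2 by DESeq2 with at least 10 counts in every library, against 0 in edgeR. Features called lower numbered 791 of 36572, 25 of 67091 and 186 of 15193 in these settings. In IP DESeq2 called 4 (2078 of 26186 features were called lower), DESeq2 with at least 10 counts 0, and limma on TPM 1 with either pseudocount (Chfr, higher). Limma called 55 and 21 of 26186 features higher there (0.1 and 1 added). In mutants, IP/input calls were 28 by DESeq2 (25 higher, 3 lower), 24 by DESeq2 with at least 10 counts, 35 by limma on TPM with either pseudocount, 0 without animals 12 and 69, and 7 to 11 without 1 animal, against 15. Over all features DESeq2 called 3192 higher and 6846 lower of 22918, and 2395 and 2461 of 9872 with at least 10 counts. Limma on TPM called 4846 higher and 1196 lower of 22918 with 0.1 added, and 5203 and 1124 with 1 added. Wild-type calls were 0 to 24 without 1 animal. Input and IP called 0 without any 1 animal, as did the interaction, where the unequal-variance test called 3. The member median in input was -0.167 with upper-quartile factors, -0.434 and -0.414 in limma on TPM (0.1 and 1 added), and -0.289 to -0.208 without 1 animal. In IP it was -0.1 with RLE factors and in DESeq2, -0.092 with upper-quartile factors, -0.084 with at least 10 counts, -0.083 in DESeq2 with that filter, -0.271 without animals 12 and 69, and -0.259 to -0.149 without 1 animal. For wild-type IP/input it was 1.022 with at least 10 counts, 1.075 in DESeq2 with that filter, 1.702 and 1.549 in limma on TPM, 1.039 for annotated genes alone, and 1.077 to 1.28 without 1 animal. In mutants it was 0.619 with RLE factors and in DESeq2, 0.618 and 0.62 with at least 10 counts (edgeR, DESeq2), 1.823 and 1.763 in limma on TPM, 0.612 for annotated genes alone, and 0.604 to 0.818 without 1 animal. The interaction median was 0.121 with upper-quartile factors, 0.139 with at least 10 counts, 0.34 and 0.329 in limma on TPM, -0.082 without animals 12 and 69, and -0.158 to 0.067 without 1 animal. The median of all features also moves with these scalings. The cause of these changes was not tested.

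Without the replicate block, which takes the animal as pair, 34 members were called higher in IP in wild types (median 1.239) and 18 in mutants (median 0.789), and 0 in the interaction (median 0.045), where 2 features were called higher and 386 lower against 0 with it. Among all features 5681 of 34864 were then called higher in IP in wild types and 1934 of 22918 in mutants. The comparisons of mutant with wild type within 1 fraction have no such pairs.

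Directions turned for weakly changed or scarce members. In input Bub1 was 0.007 (RLE, DESeq2), 0.013 (upper quartile), 0.01 and 0.006 (at least 10 counts, edgeR and DESeq2), and -0.282 to 0.038 without 1 animal. Ccna2 was -0.001 to 0.598, Cdc25b -0.146 to 0.293 and Wee1 -0.675 to 2.304 without 1 animal, and Wee1 -0.094 without animals 12 and 69. In limma on TPM Ccnb3 was -0.53 and -0.026 and Cdc25b -0.189 and -0.078. In IP Smc4 was 0.01 (RLE, DESeq2), 0.012 (upper quartile), 0.008 and 0.007 (at least 10 counts). Ccnb3 was -0.522 in limma on TPM with 0.1 added, -0.407 to 1.364 without 1 animal and -1.407 without animals 12 and 69. Wee1 was -0.318 and -0.258 in limma on TPM, -0.727 to 0.336 without 1 animal and -0.411 without animals 12 and 69, where Cdc25c was 0.366. In limma on TPM wild-type IP/input was 0.335 and 0.329 for Birc5, 0.23 and 0.21 for Bub3 and 0.021 and 0.022 for Nuf2. All 46 members lay above 0 in these 2 wild-type settings. Mutant IP/input of Nuf2 was 0.645 and 0.633 in limma on TPM. The Prc1 interaction was -0.059 to 0.154 without 1 animal. Of the other values for named members, 825 kept their direction and their side of the threshold, 28 gained a call and 18 lost one.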
